A study of Mus musculus with 272 samples.

Results

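The promoters and surroundings of 9 interferon and RNA sensing genes, *Ifnar1*, *Ifnar2*, *Stat2*, *Irf9*, *Ifih1*, *Mavs*, *Irf3*, *Irf7* and *Irf1*, were examined in mouse muscle stem cells (MuSCs). They were taken by gene name from the GENCODE M21 annotation of mm10, and all 9 names were found, each once, among 21938 protein-coding genes. The series holds 272 samples on CRISPR-Cas9 repair in MuSCs, of which 8 are chromatin libraries with peak lists. They comprise ATAC-seq and ChIP-seq against H3K4me3, H3K27ac and H3K27me3, in duplicate. Per the labels of these 8 libraries, GFP+ MuSCs were sorted from hindlimb muscle of Pax7Cas9 mice, in which Cre driven from *Pax7* switches on a Cas9 transgene, so every library carries Cas9. Those labels give neither the age of the mice nor whether they had received a virus, and there is no group without Cas9 and none treated with interferon. The replicates are described only by number, so that the spread between them may be technical, and no test was made with 2 libraries of each kind.

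Type I interferons are secreted by cells that detect viral RNA or DNA. They bind a receptor made of IFNAR1 and IFNAR2, and the receptor's kinases activate STAT proteins, STAT2 among them, which join IRF9 and bind the interferon-stimulated response element (ISRE) of target genes. A shorter palindrome, the gamma-activated site (GAS), is bound by pairs of STAT proteins. Upstream of interferon, MDA5, the product of *Ifih1*, recognizes long double-stranded RNA in the cytoplasm and signals through the mitochondrial adaptor MAVS to IRF3 and IRF7, the factors that switch on interferon genes.

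ATAC-seq marks open chromatin, H3K4me3 promoters, H3K27ac active promoters and enhancers, and H3K27me3 chromatin repressed by Polycomb. A gene was counted as marked where a peak lay within 3 kb of any of its annotated start sites in both replicates. The 8 lists held between 6080 and 140937 peaks, fewest for H3K27me3 (6080 and 10485) and most in the ATAC-seq libraries (140937 and 94574). They give no read numbers, so the depth is unknown. The values below are the authors' fold enrichments at the peak summit, as given by MACS2, and they are compared only within a feature. The MuSC identity was checked on marker lists. Of 13 MuSC markers, 13 had ATAC-seq and H3K4me3 promoter peaks and 12 H3K27ac. H3K27ac marked 1 of 9 blood cell, 1 of 10 endothelial, 3 of 10 fibro-adipogenic and 3 of 10 myofibre markers. ATAC-seq peaks were found at 7 of the 9 blood cell, 8 of the 10 endothelial, 6 of the 10 fibro-adipogenic and 9 of the 10 myofibre markers, so an open promoter alone did not separate the cell types. H3K4me3 marked 4 of the 9 blood cell markers and 5 of each of the other lists of 10. *Pax7* had H3K27ac folds of 15.02 and 14.7, whereas *Ptprc*, the gene of the leukocyte antigen CD45, had an H3K27ac peak of 4.78 in replicate 2 and none in replicate 1. Single genes also went the other way. *Cd68* was the blood cell marker with H3K27ac, at 16.9 and 8.09, above *Pax7* in replicate 1. *Calcr* was the MuSC marker without an H3K27ac peak in either replicate.

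All 9 genes had ATAC-seq, H3K4me3 and H3K27ac peaks at their promoters in each replicate, while H3K27me3 gave no promoter peak at any of them in either replicate. Among all protein-coding genes, 67.8% were marked by ATAC-seq, 60.8% by H3K4me3, 46.6% by H3K27ac and 4.81% by H3K27me3, and 45.4% carried the first 3 features without the last. The background is thus high for the active features, and for H3K27me3 a count of 0 among 9 genes differs little from it. No H3K27me3 peak lay in any of the 9 genes or within 20 kb either side. The nearest were 26.4 and 25.4 kb from the start of *Irf7* in replicates 1 and 2, and those of *Ifih1* were 827 and 617 kb away. A missing H3K27me3 peak says little by itself, since these lists are short and their marked promoters had median folds of only 4.13 and 4.11.

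The sequences that follow show where matches to the 2 interferon-related motifs lie relative to the open chromatin of these genes. ISRE was searched as GAAA, any 2 bases and GAAA again, and GAS as TTCNNNGAA, on both strands, in the RefSeq promoter windows of 300 bases (250 before and 50 after a start site) and in 151 bases around every ATAC-seq summit of the 9 genes. Positions are counted from the start of the gene in GENCODE, and capitals mark the match. In the promoter windows, ISRE matched at 2 of the 9 genes (*Stat2*, *Ifih1*) and GAS at 3 (*Ifnar1*, *Ifnar2*, *Irf1*). A longer ISRE form, with GAA after 2 further bases, matched at 0 of the 9 genes in these windows. Counted by window, 2 of the 11 windows of the 9 genes held the ISRE letters and 3 the GAS letters. Of 20150 promoter windows of protein-coding genes, 3.42% held the ISRE letters and 7.74% the GAS letters. All sequences are from GRCm38.p6 (mm10) and are given along the strand of the gene. A match is a run of letters and not a binding site.

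The first pair lies upstream of the gene start, inside an ATAC-seq peak of both replicates. The *Irf1* stretch, chr11:53769864-53769984 on the plus strand, holds GAS from −90 to −82, and both ATAC-seq summits, at −95 and −96, fell within 10 bp of the middle of the match. The *Stat2* stretch, chr10:128270219-128270339 on the plus strand, holds ISRE from −283 to −274, which is 177 and 148 bp from the summits.
Irf1 promoter: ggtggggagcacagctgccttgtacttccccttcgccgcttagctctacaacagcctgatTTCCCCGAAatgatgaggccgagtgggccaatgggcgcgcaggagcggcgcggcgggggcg
Stat2 promoter: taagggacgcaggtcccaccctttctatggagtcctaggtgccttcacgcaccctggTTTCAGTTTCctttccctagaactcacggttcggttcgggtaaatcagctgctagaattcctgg

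Shorter stretches are shown for matches at or beyond a start site. The GAS match of *Ifnar1* at −28 to −20 (chr16:91485200-91485229, plus strand) and the ISRE match of *Ifih1* at 32 to 41, in an exon (chr2:62646204-62646233, minus strand), were inside ATAC-seq peaks of both replicates. So were the GAS match of *Irf9* at 553 to 561, annotated as untranslated (chr14:55604114-55604143, plus strand), and the ISRE match of *Irf7* at 372 to 381, in an exon (chr7:141266090-141266119, minus strand). The last pair was found around ATAC-seq summits and lies outside the RefSeq windows. For *Irf7* the match lay 82 and 10 bp from the nearest summits, so it fell within the 151 bases for replicate 2 alone. For *Irf9* the summits, at 544 and 524, were 13 and 33 bp from the match, and for *Ifih1* those at 27 and 148 were 10 and 111 bp away.
Ifnar1 start: ggcgggggcgTTCACGGAAggggcggggcg
Ifih1 exon: gaagagaatcGAAACAGAAAccgatctgtg
Irf9 site: accacgtggtTTCTAGGAAatgcacctccc
Irf7 site: actgtttaggTTTCATTTTCctgagatgca

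The GAS match of *Ifnar2*, from −214 to −206, was the only one of these promoter matches outside the ATAC-seq peaks of both replicates, 311 and 480 bp from the summits. It lies close to the peak edge, since it ends at position 91372577 and the peaks begin at 91372583 and 91372623 in replicates 1 and 2. The stretch around it is shown (chr16:91372513-91372633, plus strand). Around all ATAC-seq summits of the libraries, 1.32% and 1.19% held the ISRE letters and 3.39% and 3.13% the GAS letters. For the genes examined here, 83 and 70 summits were searched in replicates 1 and 2. GAS matched around 1 summit each of *Irf9*, *Irf1* and *Irf7* in replicate 1, and of *Irf9*, *Irf1*, *Ifnar2* and *Irf3* in replicate 2. ISRE matched around 1 summit of *Ifih1* in replicate 1 and 1 of *Irf7* in replicate 2. These matches are too few to set the genes apart from all summits. Beyond the promoters, GAS matched around a summit of 1 replicate alone in 3 places, and ISRE around none. The match at −5555 bp of *Ifnar2* was near the summit of replicate 2 and that at −10435 bp of *Irf7* near the summit of replicate 1, and both lay inside the ATAC-seq peak of replicate 2 but not of replicate 1. The third match, 18600 bp from the start of *Irf3* in untranslated sequence of *Scaf1*, was near the summit of replicate 2 and inside the peaks of both.
Ifnar2 upstream: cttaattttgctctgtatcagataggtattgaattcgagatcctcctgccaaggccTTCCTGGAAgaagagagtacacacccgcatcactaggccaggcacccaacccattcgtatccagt

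The base composition of the promoters also differed. Windows at *Irf1* had the highest GC content of the group, 69.3% and 75%, with an observed over expected CpG ratio of 0.912 and 1.02. *Irf7* had a GC content of 55.0% and a CpG ratio of 0.310, and *Irf9* of 55.3% and 52.7% with ratios of 0.392 and 0.0483. The medians over all promoter windows were 57.0% and 0.588. The GC box, searched as GGGCGG on both strands, matched in windows of 7 of the 9 genes, all but *Irf7* and *Ifih1*. Counted by window, it matched in 8 of their 11 windows and in 47.8% of all windows.

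**Figure D1:**
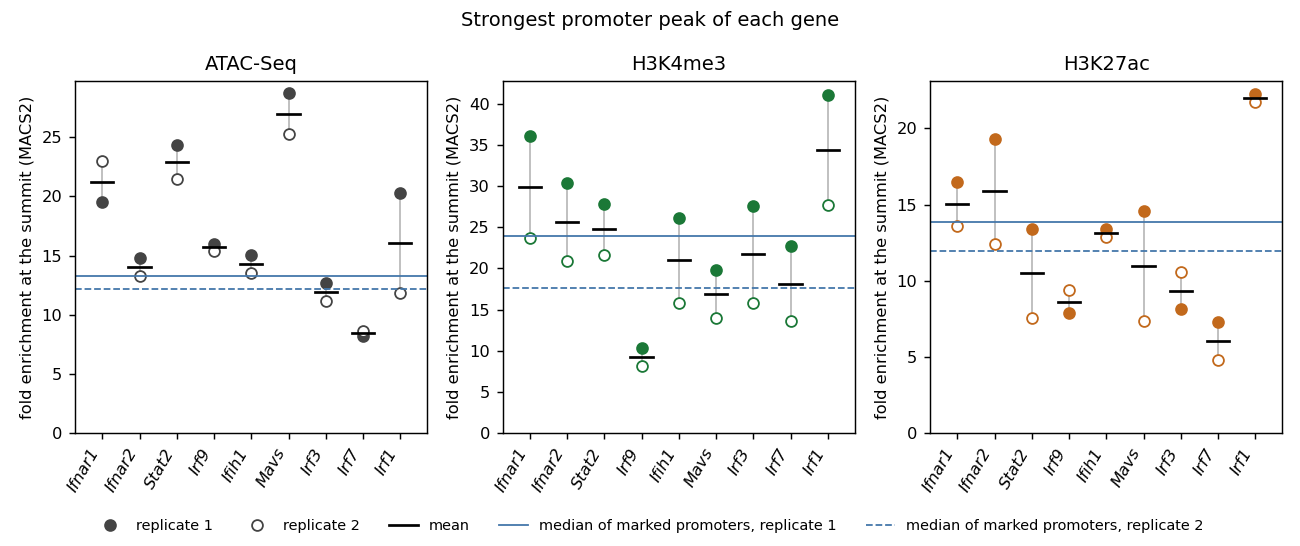
Fold enrichment at the summit of the strongest promoter peak of each gene (y axis, from 0) for ATAC-seq, H3K4me3 and H3K27ac. Filled and open points are replicates 1 and 2, black bars their mean, and blue lines the median over all protein-coding promoters marked in replicate 1 (solid) and 2 (dashed). *Mavs* is highest for ATAC-seq and *Irf1* for both histone marks, while *Irf7* is lowest for ATAC-seq and H3K27ac and *Irf9* for H3K4me3.

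The receptor genes come first. *Ifnar1* encodes a subunit of the type I interferon receptor, on chr16:91485238-91507441. It had ATAC-seq folds of 19.5 and 22.99, H3K4me3 folds of 36.1 and 23.6, and H3K27ac folds of 16.5 and 13.6 in replicates 1 and 2. All 6 values were above the median of marked promoters in their library. *Ifnar2* encodes the other subunit, on chr16:91372783-91405589. It had ATAC-seq folds of 14.8 and 13.3, H3K4me3 folds of 30.4 and 20.9, and H3K27ac folds of 19.3 and 12.4, again above the median in each library. Between the receptor genes, *Ifnar1* had the higher ATAC-seq fold in both replicates, whereas for H3K27ac the order reversed between replicates and the ranges overlapped.

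Next come the factors that carry the receptor's signal. *Stat2* encodes the STAT protein particular to type I and III interferon signalling, on chr10:128270559-128292849. Its promoter was among the most open, with ATAC-seq folds of 24.3 and 21.5, at percentiles 94.5 and 93.9 of marked promoters. H3K4me3 folds were 27.9 and 21.6. For H3K27ac it lay below the median of both libraries, at 13.4 and 7.57. The promoter had 2 H3K27ac peaks in each replicate. The stronger was 462 and 554 bp wide, against medians of 1159 and 985.5 bp, so this width does not cover the whole marked stretch. *Irf9* encodes the DNA-binding partner of STAT2, on chr14:55603571-55610030. It had ATAC-seq folds of 15.99 and 15.4 and the lowest H3K4me3 folds of the 9 genes, 10.3 and 8.19, at percentiles 16.3 and 15.4. H3K27ac folds were 7.89 and 9.38. All 6 summits of *Irf9* lay downstream of the annotated gene start, the H3K4me3 summits at 739 and 740 bp. RefSeq also places start sites of *Irf9* downstream of that gene start, at chr14:55603985 and chr14:55604579. A start site of *Rnf31*, on the same strand, lies 2415 bp from the gene start of *Irf9*.

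On the RNA sensing side, *Ifih1* had values close to the median of marked promoters for all 3 features. The gene lies on chr2:62595798-62646255. ATAC-seq folds were 15.02 and 13.6, H3K4me3 folds 26.2 and 15.8, and H3K27ac folds 13.4 and 12.9. A second element, with ATAC-seq summits 2721 and 2708 bp inside the gene and so within 3 kb of the same start, carried ATAC-seq (4.41 and 6.25) and H3K4me3 (7.94 and 4.47) in both replicates, with no H3K27ac peak in either. *Mavs*, which encodes the adaptor, lies on chr2:131234063-131248025 and had the most open promoter of the 9, with ATAC-seq folds of 28.7 and 25.2 at percentiles 97.9 and 98.1. Its H3K4me3 folds were 19.9 and 14.04, at percentiles 38.7 and 35.8. H3K27ac folds of 14.6 and 7.36 placed it above the median in replicate 1 and below it in replicate 2. Thus ATAC-seq and H3K4me3 ranked *Mavs* differently in both replicates.

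**Figure D2:**
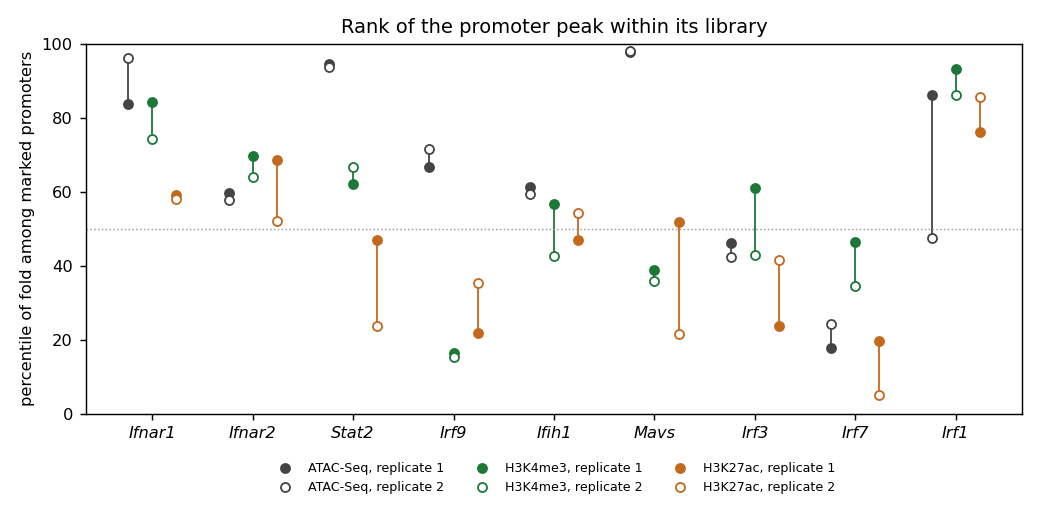
Percentile of the fold of each gene's strongest promoter peak among all protein-coding promoters marked in the same library (y axis, 0 to 100) for ATAC-seq (grey), H3K4me3 (green) and H3K27ac (orange), with filled points for replicate 1 and open points for replicate 2. *Mavs* and *Stat2* lie above the 90th percentile for ATAC-seq in both replicates and lower for both histone marks, and *Irf1* ranges from 47.6 to 86.3 for ATAC-seq.

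The interferon regulatory factors of the induction step follow. *Irf3* encodes the factor that is present before infection and activated by phosphorylation, on chr7:44997648-45002848. It had ATAC-seq folds of 12.7 and 11.2, H3K4me3 folds of 27.6 and 15.8, and H3K27ac folds of 8.12 and 10.5. Its H3K4me3 peak was 2289 and 2035 bp wide, at percentiles 78.3 and 82.3 of width. A start site of *Bcl2l12* on the opposite strand lies 69 bp from the *Irf3* start, and the ATAC-seq summits, at −329 and −349, fell in an intron of *Bcl2l12*, so the peaks cannot be assigned to 1 of the genes. *Irf7* encodes the factor that is itself induced by interferon and amplifies the response, on chr7:141262706-141266481. It had the lowest ATAC-seq folds of the 9 genes, 8.21 and 8.65, and the lowest H3K27ac folds, 7.31 and 4.78, at percentiles 19.5 and 4.99. Its H3K4me3 folds of 22.7 and 13.7 were nearer to the median, at percentiles 46.4 and 34.6. The H3K27ac peak of replicate 2 had a −log10 q of 4.87, and the stricter limit of 5 would leave 8 of the 9 genes marked.

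*Irf1* encodes the founding member of the family, induced by interferon gamma and by inflammatory signals, on chr11:53770014-53778374. It had the highest folds of the 9 genes for H3K4me3, 41.1 and 27.7, and for H3K27ac, 22.2 and 21.7. Its H3K4me3 peaks of 2572 and 2137 bp were at percentiles 84.8 and 84.9 of width. ATAC-seq differed between the replicates. The strongest peak had a fold of 20.3 and a width of 399 bp in replicate 1, and a fold of 11.9 and a width of 914 bp in replicate 2. Its place among the 9 genes for ATAC-seq was 3 in replicate 1 and 7 in replicate 2.

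To set the genes in order, each fold was divided by the median of the marked promoters of its library, and neighbours whose ranges over the 2 replicates overlapped were not separated. For ATAC-seq the order ran from *Mavs* (2.12 ± 0.0648, SD, n = 2) to *Irf7* (0.664 ± 0.0648), with *Stat2*, *Ifnar1*, *Irf1*, *Irf9*, *Ifih1*, *Ifnar2* and *Irf3* between. The ranges of 3 of the 8 neighbouring pairs overlapped, *Stat2* with *Ifnar1*, *Ifnar1* with *Irf1*, and *Irf1* with *Irf9*. Only neighbours were compared, for every feature, so genes further apart in an order may overlap too. For ATAC-seq the range of *Irf1* (0.975 to 1.53) also spanned those of *Ifih1* and *Ifnar2*, so *Irf1* was not separated from them. *Ifih1* and *Ifnar2* were apart only narrowly, with a lower value of 1.11283 against an upper one of 1.11235. For H3K4me3 it ran from *Irf1* (1.64 ± 0.107) to *Irf9* (0.448 ± 0.0237), with *Ifnar1*, *Ifnar2*, *Stat2*, *Irf3*, *Ifih1*, *Irf7* and *Mavs* between, and 4 pairs overlapped. For H3K27ac it ran from *Irf1* (1.71 ± 0.151) to *Irf7* (0.463 ± 0.0896), with *Ifnar2*, *Ifnar1*, *Ifih1*, *Mavs*, *Stat2*, *Irf3* and *Irf9* between, and 5 pairs overlapped. Across the 9 genes, Spearman's rho between the replicates was 0.800 for ATAC-seq, 0.967 for H3K4me3 and 0.650 for H3K27ac, as a description of genes within libraries.

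The medians of the 9 genes lay above those of all marked promoters for ATAC-seq and below them for H3K27ac in both replicates, and above in replicate 1 and below in replicate 2 for H3K4me3. The median ATAC-seq fold was 15.99 and 13.6, against 13.3 and 12.2 over all marked promoters, with 7 and 6 of the 9 above that median in replicates 1 and 2. For H3K4me3 it was 27.6 and 15.8, against 23.9 and 17.6, with 6 and 4 of the 9 above. For H3K27ac it was 13.4 and 10.5, against 13.9 and 11.95, with 4 of the 9 above in each replicate.

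**Figure D3:**
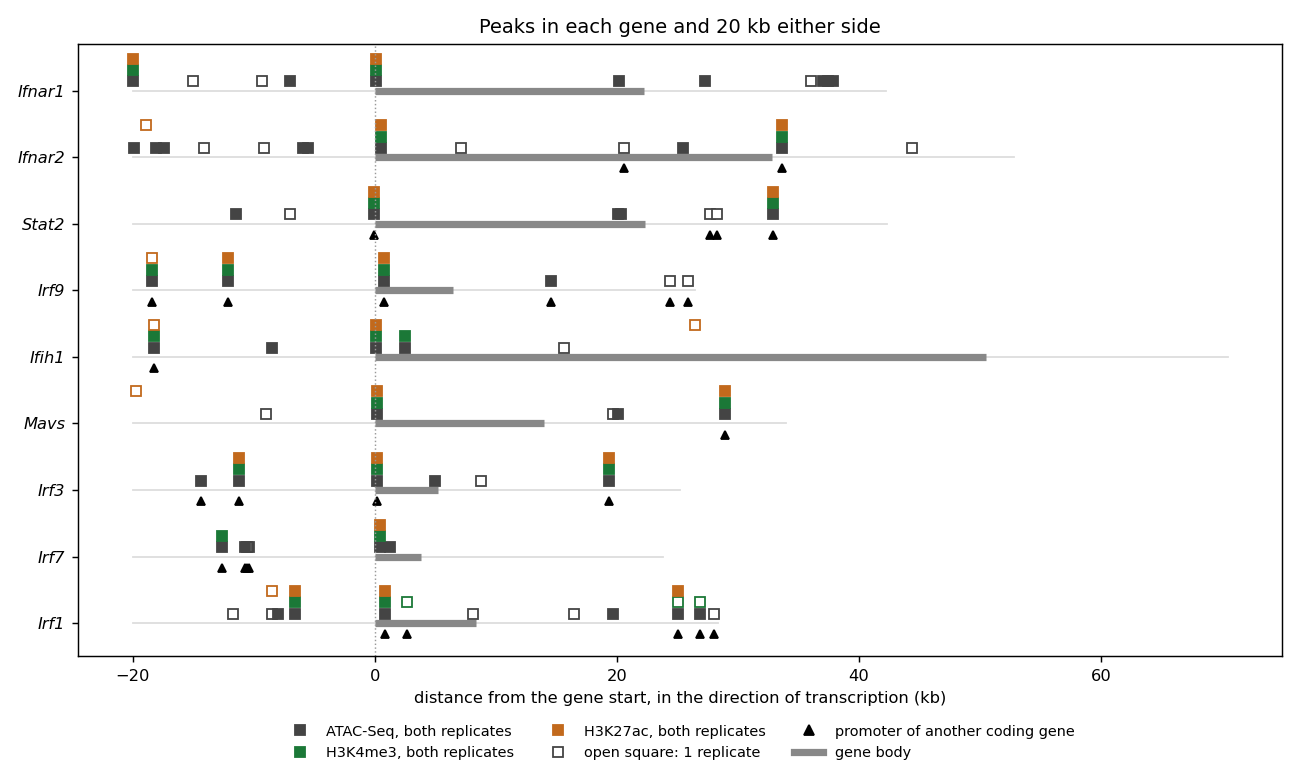
Peaks in each gene and within 20 kb either side, merged over the 8 lists and placed at the centre of each merged element, by distance from the gene start in the direction of transcription (x axis, kb). Squares stand for ATAC-seq (grey), H3K4me3 (green) and H3K27ac (orange), filled where both replicates had a peak and open where 1 did, triangles mark promoters of other coding genes, and thick bars are gene bodies. Most elements with H3K4me3 and H3K27ac are the genes' own promoters or those of neighbours, and H3K27me3 has no element.

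Beyond the promoters, the peaks of the 8 lists were merged wherever they overlapped by at least 1 bp. This gave 75 elements in the 9 genes and 20 kb either side, of which 14 met the promoter of the gene itself and 61 did not. Since promoters were counted at every annotated start site, not all of the 14 lie at the gene start. An element with ATAC-seq alone had summits 20245 and 20167 bp from the *Ifnar1* start (12.4 and 8.14). Another had them 5015 and 5010 bp from the *Irf3* start (6.08 and 7.85). Of the 61, 22 lay in the promoter of another coding gene and 39 away from any coding promoter, and 20 of the 39 had a peak of the same feature in both replicates. ATAC-seq was the only such feature at 18 of the 20 and H3K27ac was present at 2. Of 47976 elements of the genome built in the same way, 85.2% had ATAC-seq alone and 8.89% H3K27ac, so the shares near the 9 genes were close to the background.

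Both elements with H3K27ac away from coding promoters also carried ATAC-seq and H3K4me3. One lies upstream of *Irf1*, at chr11:53762355-53764562, with ATAC-seq summits at −5930 and −5979 bp. It had ATAC-seq folds of 12.4 and 11.5, H3K4me3 folds of 11.7 and 9.25, and H3K27ac folds of 14.9 and 7.61, and it overlaps the window around the microRNA gene *Mir7671*. Its core is shown for the bases between the 2 ATAC-seq summits, in capitals (chr11:53763984-53764134, plus strand), where neither motif matched.
Irf1 upstream element: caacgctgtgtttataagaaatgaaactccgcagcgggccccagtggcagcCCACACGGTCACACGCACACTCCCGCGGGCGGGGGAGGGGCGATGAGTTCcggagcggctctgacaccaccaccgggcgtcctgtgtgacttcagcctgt

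The other lies upstream of *Ifnar1*, at chr16:91464391-91466152, with ATAC-seq summits at −20251 and −20272 bp. It meets the promoters of 3 noncoding genes, *A930006K02Rik*, *Gm49625* and *Gm49626*, and had ATAC-seq folds of 15.2 and 14.3, H3K4me3 folds of 21.8 and 13.5, and H3K27ac folds of 4.98 and 7.36. Of the elements with ATAC-seq alone, the strongest were downstream of *Mavs*, at 20052 and 20073 bp in intergenic sequence (14.8 and 17.8), and in an intron of *Ifnar2*, at 25449 and 25425 bp (14.8 and 12.3). These were as open as the promoters of several of the genes, with no histone peak in any library. *Ifnar2* and *Ifnar1* had 6 elements each in both replicates away from coding promoters, *Stat2* and *Irf1* 3 each, *Ifih1* and *Mavs* 1 each, and *Irf3*, *Irf7* and *Irf9* had 0. All 5 elements beyond the *Irf9* promoter and all 4 beyond that of *Irf7* lay in promoters of other coding genes, as did 3 of 4 at *Irf3*. The intervals searched also differ in length with the genes, so these counts do not compare the genes on equal terms.

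Outside coding promoters, H3K27ac also had weak peaks in 1 replicate alone. Their folds were 4.22 near *Ifnar2*, 3.62 in an *Ifih1* intron and 4.98 near *Irf1* in replicate 1, and 4.41 near *Mavs* in replicate 2. Neighbouring promoters supplied the remaining H3K4me3 and H3K27ac marks found in both replicates. H3K27ac folds at some of them exceeded those of the gene they adjoin. The *Prmt1* promoter near *Irf3* had 36.4 and 29.8, and the *Pan2* promoter near *Stat2* had 24.1 and 15.6. The *Pank2* promoter near *Mavs* had 24.5 and 28.3. The interval around *Irf9* holds the *Psme2* and *Rnf31* promoters, merged into 1 element with H3K27ac folds of 15.4 and 13.6. *Il10rb*, which encodes a receptor chain shared by type III interferons and interleukin 10, had a promoter downstream of *Ifnar2* with H3K27ac folds of 14.2 and 11.8. The shared element of *Scaf1* and *Rras*, downstream of *Irf3*, had H3K4me3 folds of 43.4 and 31.9 and H3K27ac folds of 16.5 and 12.5. Other neighbours were marked less fully. The *Gca* promoter near *Ifih1* had ATAC-seq folds of 24.8 and 14.4 and H3K4me3 folds of 20.1 and 14.6, but an H3K27ac peak in replicate 2 alone. Near *Irf7*, the strongest element at the *Cdhr5* and *Sct* promoters had ATAC-seq folds of 6.65 and 4.79 and H3K4me3 folds of 5.03 and 4.01, with no H3K27ac, and near *Irf1* an element at the *Gm12216* promoter had H3K27ac folds of 4.98 and 4.41.

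The other genes of the pathway were taken from a list by role, of which 72 are in the annotation. Of the 72, 57 (79.2%) were marked by ATAC-seq, 50 (69.4%) by H3K4me3, 43 (59.7%) by H3K27ac and 2 (2.78%) by H3K27me3. The shares of all protein-coding genes were 67.8%, 60.8%, 46.6% and 4.81%. ATAC-seq without either active histone mark was found at 7 of the 72, against 7.46% of all protein-coding genes, and H3K4me3 without H3K27ac at 8, against 14.6%. None of 9 ligand genes, *Ifna1*, *Ifna2*, *Ifna4*, *Ifnb1*, *Ifne*, *Ifng*, *Ifnk*, *Ifnl2* and *Ifnl3*, was marked by any feature, and 7 had no promoter peak in any of the 8 libraries, as had 25.9% of all protein-coding genes. The remaining ligands, *Ifne* and *Ifnl2*, had an ATAC-seq peak in replicate 1 alone, with folds of 5.11 and 8.85. Several interferon alpha genes are near-identical copies, and reads of low mapping quality were removed, so a missing peak there is uncertain. Without the ligands, the counts were 57, 50 and 43 of 63 for ATAC-seq, H3K4me3 and H3K27ac. The counts of single roles below stand against the same shares of all protein-coding genes. These were 67.8% for ATAC-seq, 60.8% for H3K4me3, 46.6% for H3K27ac and 4.81% for H3K27me3.

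**Figure D4:**
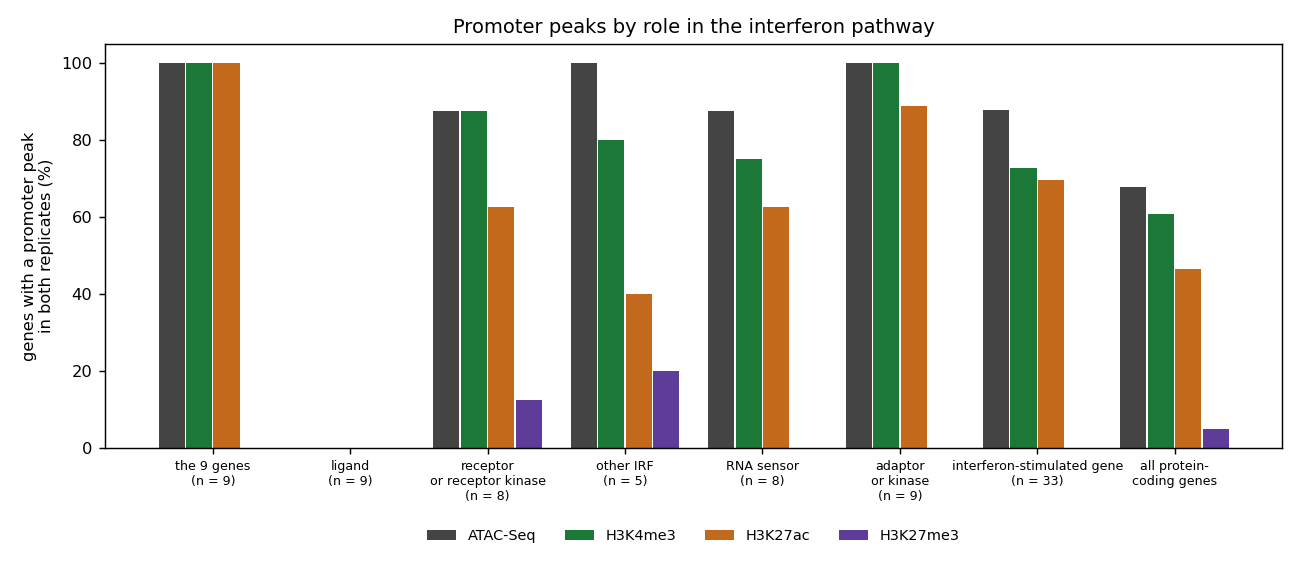
Share of genes with a promoter peak in both replicates (y axis, percent, from 0) by role in the interferon pathway, for ATAC-seq, H3K4me3, H3K27ac and H3K27me3, beside all protein-coding genes. The number of genes in each role is below the bars. The ligands have no bar, and the shares of single roles rest on 5 to 33 genes.

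Of 8 other receptor and receptor kinase genes, 7 were marked by ATAC-seq, 7 by H3K4me3 and 5 by H3K27ac. *Jak1* and *Jak2*, which encode receptor-associated kinases, had the highest H3K27ac folds of the role, 34.1 and 25.4 for *Jak1* and 16.9 and 18.8 for *Jak2*. *Tyk2*, which encodes a kinase of the type I receptor, had ATAC-seq folds of 18.2 and 18.3 and H3K4me3 folds of 20.1 and 11.6, with no H3K27ac peak in either replicate. *Ifnlr1*, which encodes the receptor chain for type III interferons, was the 1 gene of the role with H3K27me3, at folds of 4.50 and 4.79, beside H3K4me3 folds of 9.33 and 8.02 and no ATAC-seq or H3K27ac peak. With a −log10 q of at least 5 the H3K27me3 peaks of *Ifnlr1* no longer counted.

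All 5 other IRF genes were marked by ATAC-seq, 4 by H3K4me3 and 2 by H3K27ac. *Irf2*, which encodes an antagonist of IRF1, had H3K27ac folds of 27.6 and 20.96, above those of *Irf1* in replicate 1 and below them in replicate 2. *Irf5*, which encodes a factor of inflammatory signalling in macrophages, carried H3K27me3 (4.50 and 4.11) together with H3K4me3 (23.3 and 17.8) and had no H3K27ac peak. Its H3K27me3 call was also lost at that stricter limit.

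RNA sensor genes other than *Ifih1* were marked by ATAC-seq in 7 of 8 cases, by H3K4me3 in 6 and by H3K27ac in 5. *Ddx58*, which encodes RIG-I, had lower H3K27ac folds, 8.43 and 5.15, than *Ifih1*. *Adar*, which encodes an RNA editing enzyme, had H3K27ac folds of 11.1 and 7.03. *Tlr7*, which encodes an endosomal sensor of single-stranded RNA, had an ATAC-seq peak in replicate 1 alone. *Zbp1* had ATAC-seq in both replicates, an H3K4me3 peak of 3.93 in replicate 1 and no H3K27ac. Of 9 other adaptors and kinases around *Mavs*, 9 were marked by ATAC-seq and by H3K4me3 and 8 by H3K27ac. *Tank* and *Traf3*, both of which encode scaffolds of this signal, had H3K27ac folds of 28.2 and 26.7 and of 18.5 and 18.4, and *Ikbke*, which encodes an inducible kinase of IRF3, had none.

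Of 33 interferon-stimulated genes, 29 (87.9%) were marked by ATAC-seq, 24 (72.7%) by H3K4me3, 23 (69.7%) by H3K27ac and 0 by H3K27me3. Among all protein-coding genes the shares were 67.8%, 60.8%, 46.6% and 4.81%, so the count of 0 differs little from the last. *Socs1*, which encodes an inhibitor of JAK kinases, and *Isg15*, which encodes a ubiquitin-like modifier, had the highest lower-replicate H3K27ac folds, 23.03 and 20.04 for *Socs1* and 16.1 and 15.1 for *Isg15*. No promoter peak was found in any library at 3 of the 33, *Oas2*, *Ifit3* and *Ifi44*, against 25.9% of all protein-coding genes. *Oas2* encodes an enzyme that makes short chains of adenylate on sensing double-stranded RNA, and *Ifit3* a protein of the antiviral IFIT complex. Some genes of this list share a promoter and so share peaks, *Dtx3l* with *Parp9* and *Psmb9* with *Tap1*.

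For each of the 9 genes, the most similar protein-coding gene was sought, leaving out genes whose promoter windows overlap its own. The most similar genes were those at the smallest Euclidean distance over the log2(fold + 1) of the 8 libraries, with 0 where there was no peak. These were *Pja2* for *Ifnar1* (0.24), *Fignl1* for *Ifnar2* (0.11), *Timm50* for *Stat2* (0.22), *Hsd17b4* for *Irf9* (0.24), *2610507B11Rik* for *Ifih1* (0.16), *Spc25* for *Mavs* (0.30), *Cdc7* for *Irf3* (0.26), *P3h3* for *Irf7* (0.15) and *Uso1* for *Irf1* (0.26). Among the 9 genes themselves, the closest pair was *Ifnar2* and *Ifih1*, at 0.66, and *Irf9* was the farthest from any other of the 9, at 1.69 from *Irf3*. These distances are the smallest among far fewer genes than in the search over protein-coding genes, which alone makes them larger. The 2 sets of distances are thus not comparable.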

How the data were processed

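The deposited peak lists of the 8 ATAC-seq and ChIP-seq libraries were used. Per the methods and the submitters' processing notes, the authors trimmed reads with Trim Galore 0.6.10, aligned them to mm10 with BWA 0.7.17-r1188, removed low-quality and duplicate reads with SAMtools 1.5 and Sambamba, removed blacklisted regions with bedtools, corrected Tn5 offsets with deepTools 3.5.5, and called peaks per library with MACS2 2.2.6. The authors' lists, as deposited, give a fold (the ratio of signal over local background at each summit). The authors' MACS2 run also wrote −log10 of a p-value and of a q-value for each peak, and the score that the authors' lists derive from them was not used. The H3K27me3 lists were named as called at a p-value of 0.001, with the lowest −log10 q at 0, while the lowest −log10 q of the other lists was 1.32, so that an absent H3K27me3 peak missed a looser limit.

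Peaks on 21 assembled chromosomes were compared with GENCODE M21 (55413 genes). Promoters were 3 kb either side of any start site, an overlap was 1 bp, and a gene was marked with a peak in both replicates. Of several promoter peaks, the one with the highest fold was used. Elements crossing the edge of the 20 kb flank were completed with peaks up to 5 kb further out. Motifs were searched in RefSeq promoter windows of GRCm38.p6 (all 9 genes matched, with 11 windows) and around ATAC-seq summits. No test was made with 2 libraries per feature. Members and gene lists were chosen with earlier results of these data known. Named genes are the 9 members, neighbours whose promoter holds a counted peak, pathway genes with H3K27me3 in both replicates, up to 4 per role with the highest or lowest H3K27ac fold in the lower replicate, and the most similar gene. Other named genes of the pathway and marker lists were chosen after their values were seen. They are *Ddx58*, *Ifi44*, *Pax7*, *Ptprc*, *Cd68*, *Calcr*, and genes that share peaks. *Mx2*, 1 of 73 listed pathway genes, had 0 protein-coding entries under that symbol. Some listed genes are counted but not reported here by name. Overlap code was tested on simulated peaks at 200 promoters, of which 100% were recovered. Alternatives were another promoter width, start site set, overlap rule, peak limit, flank and ISRE form, and leaving out each replicate. Computations ran in Python 3.11.15, with samtools 1.23.1 for sequences and matplotlib 3.10.9 for figures. The other samples of the series, ChIP inputs included, were not analysed here.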

Additional observations from a re-analysis of the deposited data

How the results depend on the processing

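No paired analysis was possible because the replicate numbers join libraries of different assays and no test was made. The count of the 9 genes marked by ATAC-seq, H3K4me3, H3K27ac or H3K27me3 kept within 1.5 times its value in all 25 alternatives, and the only change was H3K27ac from 9 to 8 with a −log10 q of at least 5. Without replicate 1 or 2 it was 9 for each active feature and 0 for H3K27me3. The 54 alternatives for single folds, a narrower window or a summit inside the window, left every value unchanged. The strongest peak met both rules in each case, so these alternatives say little about how stable the folds are. Of all protein-coding genes, 1055 were marked by H3K27me3, against 110 with a −log10 q of at least 5, and 1241 to 1677 without 1 of the replicates. The 2 pathway genes with H3K27me3, *Irf5* and *Ifnlr1*, fell to 0 under the same limit, since few H3K27me3 peaks reach it. Peaks beyond the promoters of the 9 genes depended on the flank by construction. Their mean per replicate was 54 for ATAC-seq, with 21.5 at 10 kb and 113 at 50 kb, was 14 for H3K4me3, with 4 and 36.5, and was 14.5 for H3K27ac, with 4.5 and 37.5. Without 1 of the replicates it was 48 to 60, 14 to 14 and 14 to 15. For H3K27me3 it was 0, also without either replicate, and 3 at 50 kb, all at *Irf7*. Of 216 alternatives for single genes, 49 moved such a count by over 1.5 times. The ISRE letters matched at 2 genes, and a longer form with a further GAA after 2 more bases at 0. Depth is unknown, so what a missing peak means could not be bounded.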
